A study of Mus musculus with 12 samples.

Results

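The 45 genes described here are induced by type I or type II interferon or belong to the Schlafen family, and they were followed by RNA sequencing in lymph node T cells of B6 and CD8Dual mice. They were taken by gene symbol from a list that was chosen with earlier results of these data known. All 45 were found among the 49585 genes of the count table, and all 45 were among the 13118 genes with enough counts to be tested. The groups were B6 CD4+ and B6 CD8+ T cells on one side and the CD8.1+ and CD8.2+ T cells found in CD8Dual mice on the other, with 3 samples in each of the 4 groups, from male mice of 6 to 10 weeks. In CD8Dual mice, also labelled 8in4, the Cd4 locus had been altered in both copies to encode a CD8α.1 and CD8β co-receptor in place of CD4, while the intact Cd8 locus encoded CD8α.2 and CD8β. CD8.1 T cells therefore expressed a co-receptor from the Cd4 locus and stand for the helper lineage, and CD8.2 T cells expressed one from the Cd8 locus and stand for the cytotoxic lineage. The cells were sorted as TCRβ+ and CD62L+; the study's methods add a CD44- gate that the sample labels do not name. RNA came from pooled sorted cells and nothing stated whether the samples of a group came from separate mice, so the P values measure the spread between these samples, which may be in part technical.

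Interferons are secreted proteins that warn cells of infection. Type I interferons signal through the receptor pair Ifnar1 and Ifnar2 to a transcription factor complex that holds Stat2 and Irf9, and interferon γ signals through its own receptor pair, Ifngr1 and Ifngr2. The genes switched on in this way detect viral RNA, degrade or block it, tag proteins with ISG15, or coat the vacuoles of intracellular pathogens with GTPases, and naive T cells keep a low tonic level of many of them. Schlafen genes were named for their effect on thymocyte growth, and Slfn2 is required for T cell quiescence.

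The promoters of these genes commonly carry elements bound by interferon regulatory factors or by Stat proteins. RefSeq promoter sequences (build GRCm38.p6), which span 250 bases before to 50 bases after a gene's start, were matched by symbol for 35 of the 45 genes, giving 43 promoters. The letters GAAANNGAA, part of the element bound by interferon regulatory factors, were searched on both strands and stood in 25 of the 43 promoters, or 58.1%, against 8.56% of all 32851 promoters of that length. The letters TTCNNNGAA, the core of the Stat element and the same on both strands, stood in 8 of the 43, or 18.6%, against 8.3% of all; 5 of the promoters held both motifs. Such a match is a description of the letters and not a measured binding site. The promoters below belong to genes on which the comparisons turn: Isg15, Ifit3, Oas3 and Gbp2 as effectors, Ifi44 as the gene whose lineage difference changed between strains, and Slfn5 and Slfn2 as the Schlafen genes that went the other way. Each is written 5′ to 3′ on the gene's strand, with GAAANNGAA on either strand in capitals.
Isg15 (chr4:156200769-156201068, minus strand): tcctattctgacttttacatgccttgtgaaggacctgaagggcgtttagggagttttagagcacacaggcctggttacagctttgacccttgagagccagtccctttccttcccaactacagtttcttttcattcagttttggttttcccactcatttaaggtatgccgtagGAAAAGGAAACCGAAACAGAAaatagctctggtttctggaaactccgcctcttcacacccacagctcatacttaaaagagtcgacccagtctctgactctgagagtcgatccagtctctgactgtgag
Ifit3 (chr19:34583279-34583578, plus strand): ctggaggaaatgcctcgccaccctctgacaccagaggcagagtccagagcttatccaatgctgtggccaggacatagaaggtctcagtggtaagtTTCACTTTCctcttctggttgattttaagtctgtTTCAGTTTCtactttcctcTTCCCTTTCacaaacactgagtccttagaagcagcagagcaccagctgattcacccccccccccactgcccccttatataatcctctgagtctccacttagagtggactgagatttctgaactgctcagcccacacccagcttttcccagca
Oas3 (chr5:120777610-120777909, minus strand): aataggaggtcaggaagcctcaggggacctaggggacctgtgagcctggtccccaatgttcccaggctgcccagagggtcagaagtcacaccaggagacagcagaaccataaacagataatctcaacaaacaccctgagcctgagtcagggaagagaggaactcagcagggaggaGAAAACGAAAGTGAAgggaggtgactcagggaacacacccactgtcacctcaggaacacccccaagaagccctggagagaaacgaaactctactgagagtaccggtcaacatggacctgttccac
Gbp2 (chr3:142620413-142620712, plus strand): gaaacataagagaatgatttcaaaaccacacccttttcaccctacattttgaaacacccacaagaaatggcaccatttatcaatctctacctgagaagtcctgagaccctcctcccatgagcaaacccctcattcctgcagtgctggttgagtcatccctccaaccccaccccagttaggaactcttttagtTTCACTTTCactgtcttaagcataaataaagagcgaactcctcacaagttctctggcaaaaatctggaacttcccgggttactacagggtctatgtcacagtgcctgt
Ifi44 (chr3:151749861-151750160, minus strand): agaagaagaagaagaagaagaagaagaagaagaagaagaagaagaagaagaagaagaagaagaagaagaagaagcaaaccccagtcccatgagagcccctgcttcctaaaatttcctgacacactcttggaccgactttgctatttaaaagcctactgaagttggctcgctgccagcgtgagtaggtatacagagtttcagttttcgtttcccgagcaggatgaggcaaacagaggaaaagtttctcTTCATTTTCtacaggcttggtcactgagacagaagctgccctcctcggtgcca
Slfn5 (chr11:82951852-82952151, plus strand): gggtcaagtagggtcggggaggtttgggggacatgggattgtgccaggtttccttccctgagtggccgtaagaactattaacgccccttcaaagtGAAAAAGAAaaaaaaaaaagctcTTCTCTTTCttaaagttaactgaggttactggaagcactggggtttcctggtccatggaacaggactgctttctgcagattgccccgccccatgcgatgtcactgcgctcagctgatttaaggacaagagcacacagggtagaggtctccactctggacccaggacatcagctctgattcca
Slfn2 (chr11:83064862-83065161, plus strand): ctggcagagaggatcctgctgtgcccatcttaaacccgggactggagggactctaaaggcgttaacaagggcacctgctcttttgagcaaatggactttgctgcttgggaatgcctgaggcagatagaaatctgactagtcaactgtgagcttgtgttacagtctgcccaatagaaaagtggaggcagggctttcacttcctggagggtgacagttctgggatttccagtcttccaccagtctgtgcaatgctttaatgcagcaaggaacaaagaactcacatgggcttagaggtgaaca
Overlapping copies of the motif ran together in Isg15 and Oas3. Ifit3 held 3 separate copies, Slfn5 held 2, and Gbp2 and Ifi44 held 1. No match stood in this window of Slfn2, nor in those of Slfn1, Irf1, Irf7, Irf9, Isg20, Oasl1, Oasl2, Ifi35, Ifi47, Dtx3l or Xaf1.

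The libraries held between 18667474 and 37110502 counts. Cd3e, a T cell receptor chain, was at 269 to 358 CPM (read counts scaled to a common library size with the trimmed mean of M values) in every library. Cd4 was at 908, 995 and 1004 CPM in B6 CD4+ T cells, 47.2 to 51.5 in CD8.1 T cells and below 2 CPM elsewhere. Siglech, which defines plasmacytoid dendritic cells, was at most 0.332 CPM, Ncr1, which defines NK cells, at most 0.345 CPM, and Lyz2 of myeloid cells between 1.39 and 16.2 CPM, highest in CD8Dual libraries. The full lists of the first of these types (Siglech, Bst2, Ly6d, Tcf4, Ccr9, Klk1) and of NK cells (Ncr1, Klrb1c, Klre1, Eomes) nevertheless differed by lineage. The former, which includes Bst2 of the 45 genes, summed to 76.8 to 114 CPM in B6 CD4+, 297 to 314 in B6 CD8+, 96.2 to 140 in CD8.1 and 462 to 498 in CD8.2 T cells, most of it in the cytotoxic groups from Ccr9. The NK list summed to 5.36 to 7.89, 78.3 to 123, 7.88 to 14.5 and 77.2 to 82.8 CPM in the same order, mostly from Eomes in the cytotoxic groups, and Klre1 was at 5.65 to 7.84 CPM in B6 CD8+ T cells and at most 0.556 CPM elsewhere. B cell markers summed to 540 to 578 CPM in B6 CD4+, 637 to 662 in B6 CD8+, 651 to 791 in CD8.1 and 595 to 686 in CD8.2 T cells, mostly from Ighm. Regulatory T cell markers (Foxp3, Il2ra, Ikzf2, Ctla4, Tnfrsf18) summed to 350 to 385 CPM in CD8.1 T cells against 133 to 185 in B6 CD4+ T cells and 54.0 to 59.8 in both cytotoxic groups. Memory-associated markers (Cd44, Il2rb, Cxcr3, Eomes, Tbx21, Ly6c2) summed to 1377 to 1769 CPM in B6 CD8+, 961 to 993 in CD8.2, 332 to 376 in CD8.1 and 131 to 163 in B6 CD4+ T cells, mostly from Ly6c2 and Il2rb. Cd44, the gene of the gate that only the study's methods name, was instead highest in CD8.1 T cells. It was at 67.9 to 77.8 CPM there against 49.5 to 60.1 in CD8.2, 42.4 to 61.0 in B6 CD8+ and 33.4 to 37.5 in B6 CD4+ T cells. Mitochondrial genes took 4.93 to 5.54% of the counts in CD8.1 libraries and 1.84 to 3.92% in the others. Gm42418, looked at beside them for RNA quality, took 3.14% in CD8.2 replicate 3 and 0.0878 to 0.888% in every other library. CD8.2 replicate 3 was also the library with 37110502 counts. The part of these shifts in the results below was not tested, and in such bulk samples fewer cells with a transcript and less of it per cell cannot be told apart.

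Every one of the 45 genes had counts in every library. Per kilobase of exonic sequence, Slfn2 was the most abundant at 308 CPM per kilobase over the 12 libraries, followed by Ifi47 at 186, Slfn1 at 155 and Igtp at 107. The largest count of a single library was 20595 for Ifi47 in CD8.2 replicate 3. At the other end stood Ifi44 at 0.324 CPM per kilobase, Mx1 at 0.393 and Oas2 at 0.642, and the smallest count was 2 for Mx1 in 1 CD8.1 library. The interferons themselves were nearly silent: of 19 interferon genes of the table none had enough counts to be tested, and Ifng, the only one with any count, reached at most 11 counts.

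**Figure D1:**
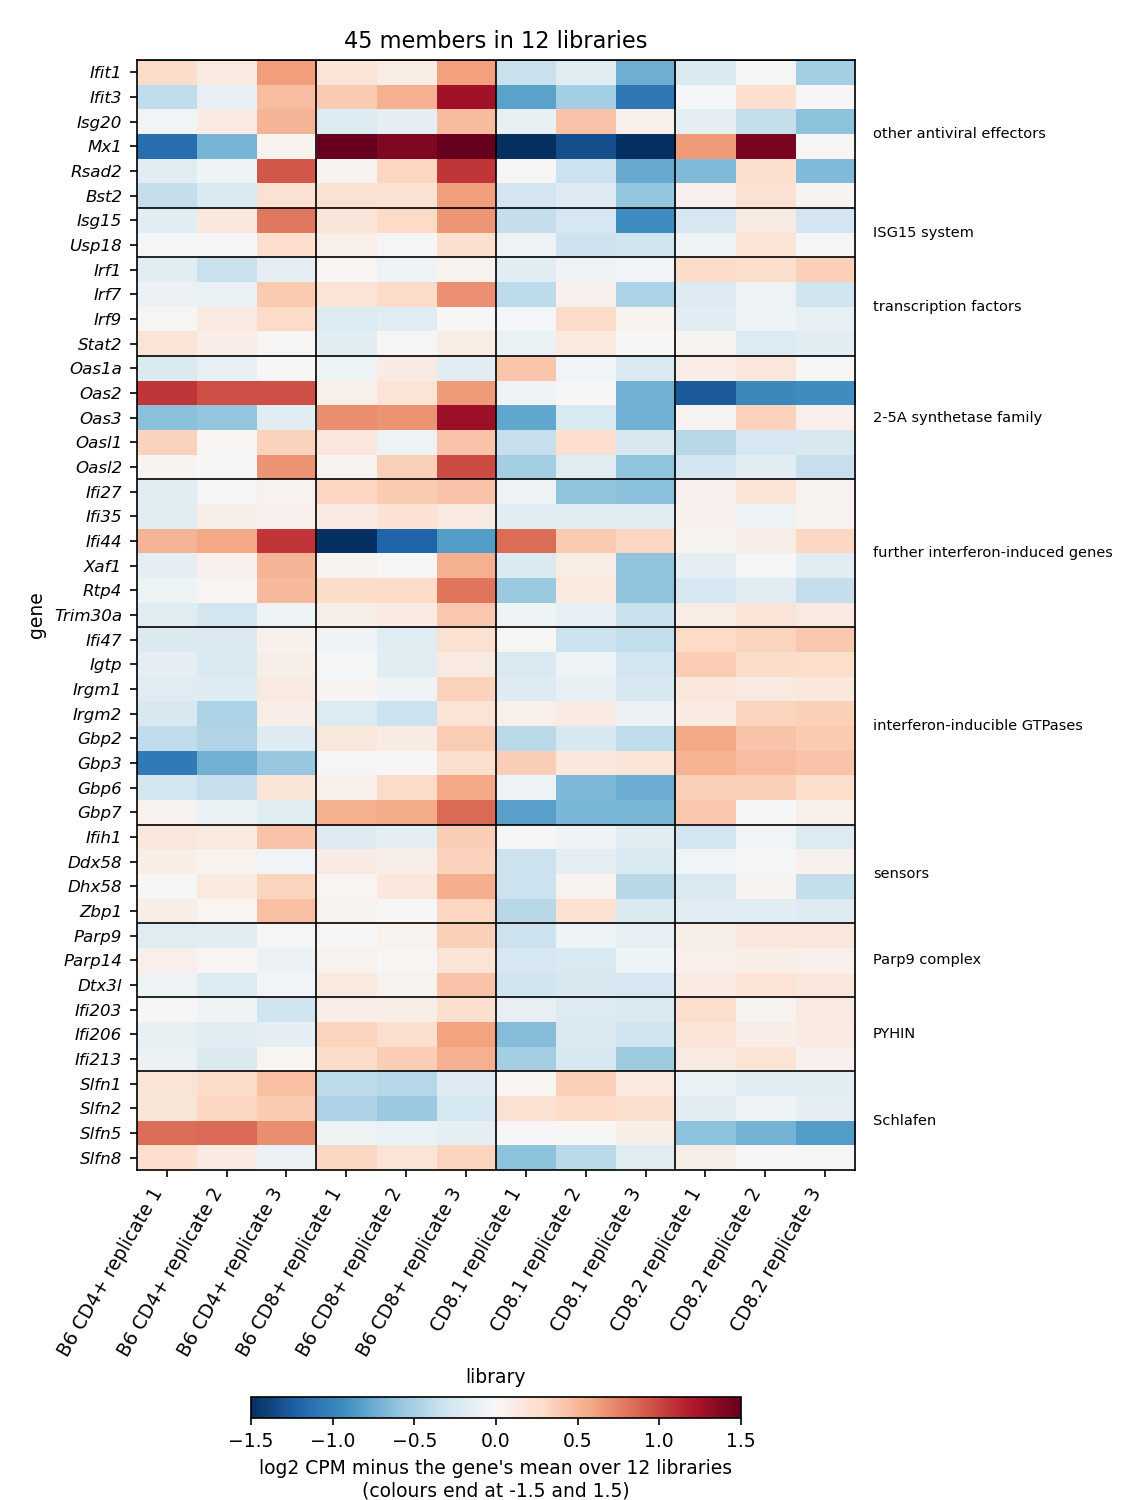
Heatmap of the 45 genes (rows, grouped by role) in the 12 libraries (columns, grouped by sample group), coloured by log2 CPM minus the gene's mean over all libraries. Slfn1, Slfn2 and Slfn5 were higher in both helper groups than in the cytotoxic group of the same strain, Mx1 and Oas3 were lower, and the third B6 library of both lineages was high in Isg15, Rsad2 and Oasl2.

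As a description of each library, the median over the 45 genes of log2 CPM minus the mean of all libraries was taken. B6 CD4+ libraries were at -0.08, -0.01 and 0.14, B6 CD8+ libraries at 0.07, 0.10 and 0.38, CD8.1 libraries at -0.21, -0.12 and -0.29, and CD8.2 libraries at 0.04, 0.10 and 0.01. CD8.1 T cells thus had the lowest levels, and all 3 lay below every library of the other groups. Replicate 3 of B6 stood highest in both lineages. In replicate 3, CD4+ and CD8+ T cells held Isg15 at 58.2 and 53.3 CPM, against 30.2 to 41.6 CPM in the 4 other B6 libraries. Rsad2, an antiviral enzyme also called viperin, was at 13.8 and 15.3 CPM there against 6.46 to 9.05 CPM. Oasl2 was at 24.5 and 30.2 CPM there, against 15.3 to 19.7 CPM in the same 4 libraries. Results that rest on these 2 libraries are given below with and without them.

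**Figure D2:**
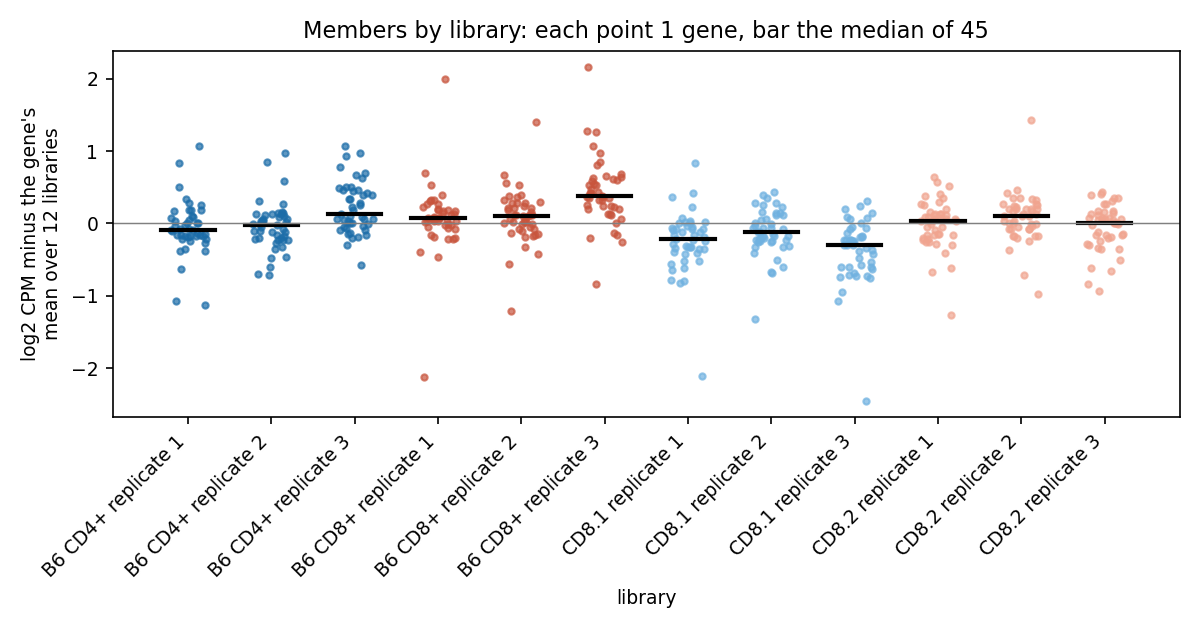
Log2 CPM minus the gene's mean over 12 libraries (vertical axis) for each of the 45 genes (points) in each library (horizontal axis), with the median as a bar. The bars of the CD8.1 libraries lie between -0.29 and -0.12, and the highest, at 0.38, is B6 CD8+ replicate 3.

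The first comparison asked how the lineages differed in wild-type mice. Most of the interferon-stimulated genes that differed were lower in B6 CD4+ than in B6 CD8+ T cells, whereas Slfn1, Slfn2 and Slfn5 were higher. In all, 6 of 45 genes were higher and 14 lower in CD4+ T cells (edgeR, adjusted P under 0.05), where 11.4% of all tested genes were called higher and 11.7% lower. The median log2 fold change over the 45 genes was -0.16, against -0.0011 over all tested genes. By the study's definition of a difference, a fold over 5 with P under 0.05, taken here as unadjusted since no adjustment was stated, 1 of the 45 passed (Mx1), and 3.29% of all tested genes did. The same question in CD8Dual mice, where neither lineage carries CD4, compared CD8.1 with CD8.2 T cells. Here 4 of 45 genes were higher and 21 lower in CD8.1 T cells, with 14.9% and 13.8% of all tested genes called in those directions. The median was -0.24 against -0.0047 over all tested genes, and the fold over 5 definition again left Mx1 alone, beside 3.32% of all genes. These comparisons share no samples: 43 of the 45 genes had the same sign in both (95.6%), as had 71.9% of all tested genes. The 17 genes called in both, 85% of the calls in B6 and 68% of those in CD8Dual mice, all had the same direction. The replicate numbers were taken to pair the B6 samples because of weak correlations between them, not because the labels say so, and the main test had no such block. With the number as a block 22 of the 45 genes were called in B6, 6 higher and 16 lower. Of the 20 calls 19 were kept, Ifi203 was lost, and Irf7, Gbp6 and Parp9 were added as lower. Leaving out 1 library left between 12 and 22 calls in B6 and between 19 and 27 in CD8Dual mice, the 12 without B6 CD4+ replicate 2. With B6 replicate 3 of both lineages removed, 15 of the 20 calls in B6 were kept, 5 higher and 10 lower, and none was added. Ifi27, Dtx3l, Ifi203, Irf1 and Irf9 were lost, at adjusted P of 0.0796, 0.0621, 0.476, 0.105 and 0.078 (edgeR).

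Schlafen genes were 3 of the 6 genes called higher in B6 CD4+ T cells and 3 of the 4 called higher in CD8.1 T cells. Slfn2, the quiescence gene, was at 568, 623 and 658 CPM in B6 CD4+ and 364, 341 and 419 CPM in B6 CD8+ T cells. In CD8Dual mice it was at 587, 613 and 590 CPM in CD8.1 T cells and 451, 474 and 455 CPM in CD8.2 T cells. All helper libraries thus lay above all cytotoxic libraries, and the log2 fold changes were 0.72 ± 0.08 (SE, adjusted P = 6.93e-06) in B6 and 0.37 ± 0.08 (adjusted P = 0.00261) in CD8Dual mice. Slfn1 held 324, 343 and 390 CPM in B6 CD4+ against 217, 212 and 248 CPM in B6 CD8+ T cells. It held 291, 364 and 315 CPM in CD8.1 T cells and 266, 251 and 254 CPM in CD8.2 T cells. Its log2 fold changes were 0.64 ± 0.09 (adjusted P = 9.45e-05) and 0.33 ± 0.09 (adjusted P = 0.0157), with no overlap of the groups in either strain. Slfn5, which encodes a longer, nuclear Schlafen protein, was at 170, 171 and 154 CPM in B6 CD4+ and 89.8, 88.4 and 86.7 CPM in B6 CD8+ T cells. Its levels were 95.4, 94.6 and 101 CPM in CD8.1 T cells and 61.8, 58.2 and 53.2 CPM in CD8.2 T cells. The helper lineage was higher in both strains, by 0.90 ± 0.07 (adjusted P = 2e-07) and 0.75 ± 0.07 on the log2 scale (adjusted P = 2.36e-06). Slfn8, by contrast, was lower in CD8.1 (56.1, 64.9 and 75.7 CPM) than in CD8.2 T cells (91.4, 85.3 and 86.3 CPM; log2 fold change -0.42 ± 0.11, adjusted P = 0.00818), while the B6 groups overlapped at 80.6 to 103 and 98.0 to 108 CPM. Among the Schlafen genes outside the list, Slfn3 was higher in the helper lineage of both strains, at 7.08 ± 0.86 CPM (SD, n = 3) in B6 CD4+ against 3.28 ± 0.43 CPM in B6 CD8+ T cells. The 4 Schlafen genes of the list lie on chromosome 11, from the start of Slfn5 at 82951349 to the end of Slfn1 at 83122670 (GRCm38), and reads that fit more than 1 of these related genes may have been divided among them.

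**Figure D3:**
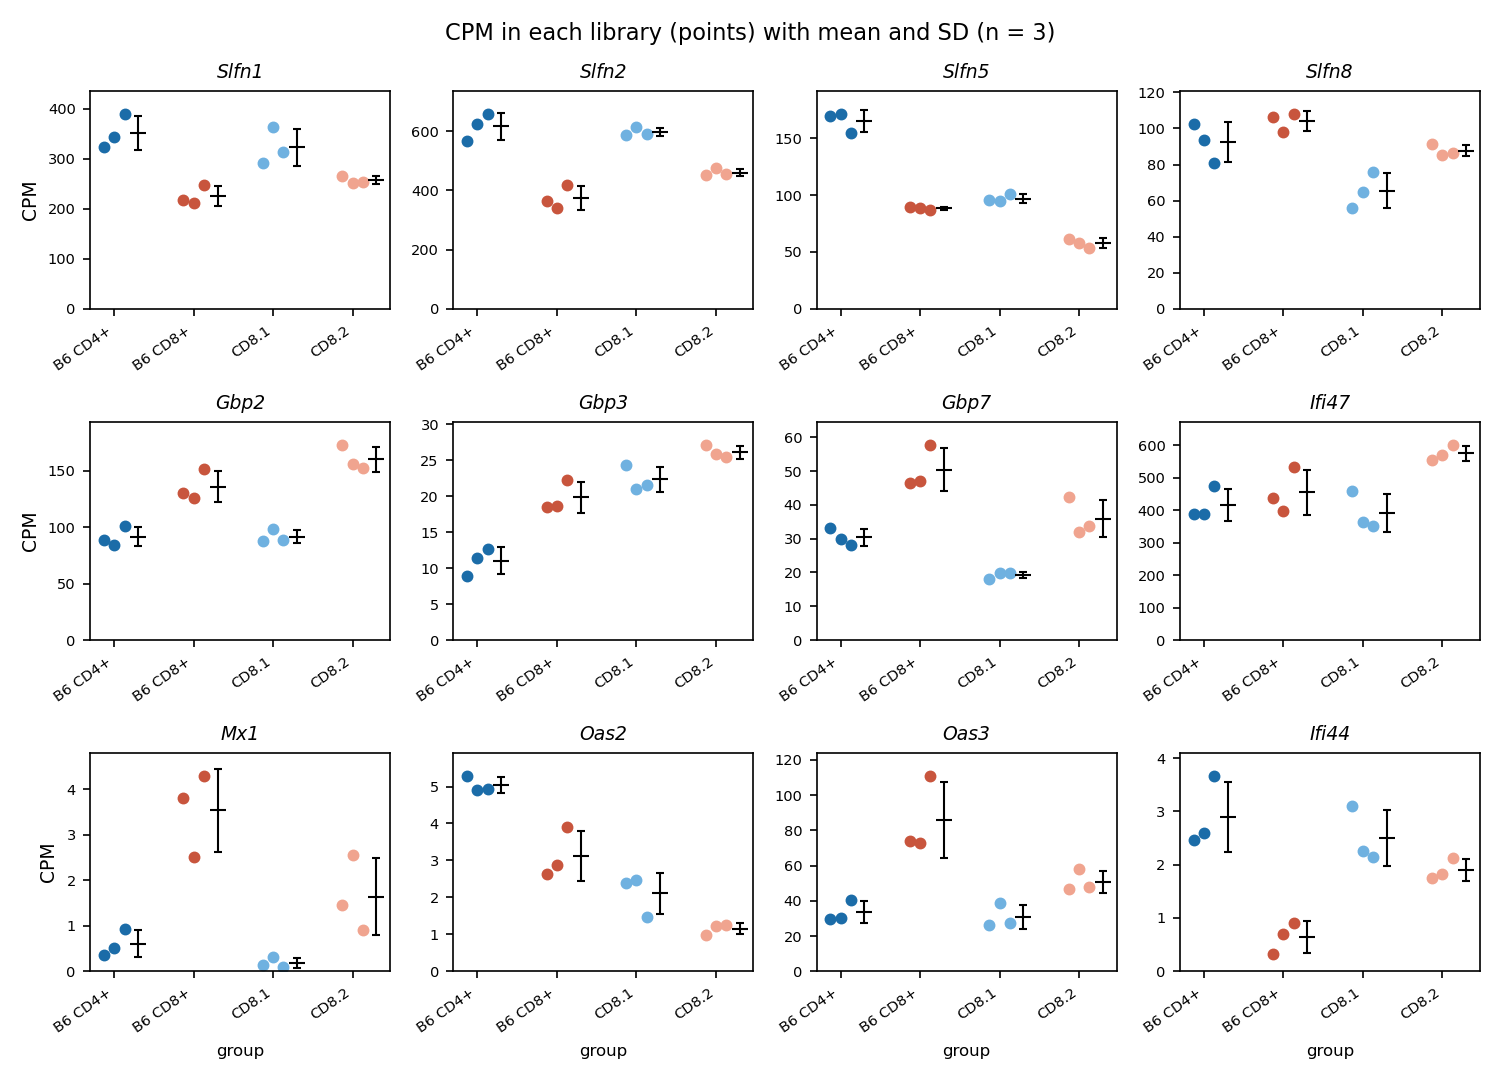
CPM (vertical axes, from 0) of 12 of the genes in each library (points, 3 per group), with the mean and SD to the right of each group. Slfn1, Slfn2 and Slfn5 were higher in the helper group of each strain (B6 CD4+ and CD8.1) than in its cytotoxic group (B6 CD8+ and CD8.2); Gbp2, Gbp7, Mx1 and Oas3 were lower.

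Interferon-inducible GTPases, which attack the membranes around intracellular microbes, all had negative log2 fold changes in both strains. In B6, 3 of 8 were called lower in CD4+ T cells, and in CD8Dual mice 6 of 8 were called lower in CD8.1 T cells, with medians of -0.32 and -0.53. Gbp2, a guanylate-binding protein, was at 89.1, 84.5 and 101 CPM in B6 CD4+ and 130, 126 and 151 CPM in B6 CD8+ T cells. The CD8Dual libraries held 87.5, 98.4 and 88.9 CPM in CD8.1 T cells and 173, 156 and 152 CPM in CD8.2 T cells. Neither pair of groups overlapped, and Gbp2 was 1.48-fold lower in B6 CD4+ (adjusted P = 0.000259) and 1.75-fold lower in CD8.1 T cells (adjusted P = 9.96e-06) than in the cytotoxic cells. Gbp7 was at 33.2, 29.8 and 28.2 against 46.3, 47.1 and 57.7 CPM in B6, and at 18.1, 19.8 and 19.8 against 42.2, 31.8 and 33.8 CPM in CD8Dual mice. This gave 1.66-fold (adjusted P = 0.000209) and 1.87-fold lower levels (adjusted P = 4.06e-05) in the helper lineage. Gbp3 was 1.8-fold lower in B6 CD4+ T cells, at 8.96, 11.4 and 12.7 against 18.5, 18.7 and 22.3 CPM (adjusted P = 9.17e-05). In CD8Dual mice its difference was not called, at 24.3, 21.1 and 21.6 CPM in CD8.1 T cells and 27.1, 25.9 and 25.4 CPM in CD8.2 T cells (adjusted P = 0.164). The difference between these lineage changes was 0.62 ± 0.17 on the log2 scale and did not pass the threshold (adjusted P = 0.0896). The immunity-related GTPases Ifi47 and Igtp were abundant, at 351 to 601 and 175 to 277 CPM over all libraries. In CD8Dual mice, Ifi47 was 1.47-fold (adjusted P = 0.00252) and Igtp 1.42-fold lower (adjusted P = 0.00108) in CD8.1 T cells, with no overlap of the groups. Their B6 groups overlapped, with log2 fold changes of -0.13 ± 0.12 and -0.08 ± 0.10. The interaction did not pass the threshold for either gene (adjusted P = 0.279 and 0.176). Gbp6 was 1.73-fold lower in CD8.1 T cells (adjusted P = 0.00425) and Irgm1 1.26-fold lower (adjusted P = 0.0267), and Irgm2 was called in neither strain. Exons of Igtp and Irgm2 overlap on the same strand, Gbp6 and Gbp7 each overlap another annotated gene, and the Gbp genes resemble each other, so counts of these genes may be shared.

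Antiviral effectors were lower in the helper lineage where they differed. Mx1, a dynamin-like GTPase whose C57BL/6 allele is known to be defective, had the greatest fold of the 45 genes between the lineages of each strain, at very low counts. Its counts were 8, 12 and 22 in B6 CD4+ and 93, 69 and 89 in B6 CD8+ T cells. In CD8Dual mice they were 3, 7 and 2 in CD8.1 T cells and 34, 46 and 31 in CD8.2 T cells. Summed per group and scaled to the libraries, Mx1 was 5.65 times higher in B6 CD8+ than B6 CD4+ T cells (exact 95% interval of the counts 4.06 to 8.03) and 7.89 times higher in CD8.2 than CD8.1 T cells (4.34 to 15.7), intervals that cover counting error only. The adjusted P values were 0.000354 and 0.000601. Ifit3, which binds with Ifit1 to foreign RNA, was at 24.7, 29.5 and 44.1 CPM in B6 CD4+ and 42.3, 46.5 and 76.9 CPM in B6 CD8+ T cells. Its levels were 18.4, 22.5 and 15.2 CPM in CD8.1 T cells and 31.8, 38.2 and 31.9 CPM in CD8.2 T cells. The log2 fold changes were -0.75 ± 0.22 (adjusted P = 0.0235) and -0.85 ± 0.23 (adjusted P = 0.0122), although the B6 groups overlapped. In B6 the call of Ifit3 was lost without CD4+ replicate 1, CD4+ replicate 2 or CD8+ replicate 3. Bst2, or tetherin, which holds budding virus at the membrane, was 1.38-fold lower in the helper lineage of both strains, at 58.3 to 87.2 against 86.9 to 115 CPM in B6 and 50.1 to 65.2 against 77.0 to 87.8 CPM in CD8Dual mice. The adjusted P values were 0.0298 and 0.0282. The B6 call of Bst2 was lost without CD4+ replicate 1, CD4+ replicate 2 or CD8+ replicate 3, and the other without CD8.1 replicate 3, CD8.2 replicate 1 or CD8.2 replicate 2. Ifit1, Isg20 and Rsad2 were not called between the lineages of either strain.

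The 2-5A synthetases, which activate the RNA-degrading enzyme RNase L, went both ways. Oas3 was at 29.5, 30.1 and 40.7 CPM in B6 CD4+ and 74.1, 72.6 and 111 CPM in B6 CD8+ T cells. In CD8Dual mice it was at 26.5, 38.9 and 27.6 CPM in CD8.1 T cells and 46.7, 58.1 and 48.1 CPM in CD8.2 T cells. Helper libraries lay below all cytotoxic libraries of their strain, by 2.56-fold (adjusted P = 4.09e-05) and 1.64-fold (adjusted P = 0.00861). Oas2 was low and went the opposite way, with 5.28, 4.91 and 4.93 CPM in B6 CD4+ and 2.62, 2.87 and 3.90 CPM in B6 CD8+ T cells. CD8.1 T cells held 2.39, 2.48 and 1.47 CPM and CD8.2 T cells 0.979, 1.22 and 1.25 CPM. The helper lineage was thus 1.62-fold (adjusted P = 0.0297) and 1.83-fold higher (adjusted P = 0.0171) in Oas2. Leaving out any B6 library except CD8+ replicate 3 lost the B6 call of Oas2, and leaving out CD8.1 replicate 2 or CD8.2 replicate 1 lost the other. Oas1a, Oasl1 and Oasl2 were called in neither strain. Oas2 and Oas3 are neighbours on chromosome 5, at 120730333 to 120749853 and 120753098 to 120777661 on the minus strand.

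PYHIN genes, whose proteins bind DNA, formed the one group in which all members, here 3, were called lower in the helper lineage of both strains. By sign alone, all members of the Parp9 complex, the GTPases and the ISG15 system were negative in both strains too. Ifi206 was at 158, 151 and 155 CPM in B6 CD4+ against 214, 201 and 258 CPM in B6 CD8+ T cells. In CD8Dual mice it was at 109, 146 and 138 CPM in CD8.1 against 195, 182 and 185 CPM in CD8.2 T cells. The log2 fold changes were -0.54 ± 0.11 (adjusted P = 0.00145) and -0.51 ± 0.11 (adjusted P = 0.00211). Ifi213 fell by 0.48 and 0.57 on the same scale (adjusted P = 0.00166 and 0.000506). Ifi203 fell by 0.25 and 0.33 (adjusted P = 0.0462 and 0.0102), and its B6 call was lost under 11 of 20 alternatives. The Parp9 complex, an ADP-ribosylating pair with a ubiquitin ligase that amplifies interferon signals, was close to this: Dtx3l was lower in both strains (log2 fold changes -0.33 ± 0.09 and -0.43 ± 0.09, adjusted P = 0.0132 and 0.00183). Parp9 and Parp14 were lower in CD8.1 T cells (log2 fold changes -0.31 and -0.26, adjusted P = 0.0285 and 0.0179). Parp9 and Dtx3l overlap on opposite strands, Ifi203 overlaps Mndal, and it was not given whether reads were counted by strand.

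Of the transcription factors on the list (Stat2, Irf9, Irf1 and Irf7), only Irf1 was called between the lineages of both strains. Receptors and signalling genes outside the list are given further below. Stat2 was at 29.4 to 38.8 CPM in all 12 libraries and was called in no comparison. Irf9, its DNA-binding partner, was at 136, 148 and 164 CPM in B6 CD4+ and 117, 119 and 135 CPM in B6 CD8+ T cells (log2 fold change 0.27 ± 0.09, adjusted P = 0.0461), a call lost under 8 of 20 alternatives. In CD8Dual mice it was at 132, 164 and 140 against 120, 128 and 124 CPM and not called (0.23 ± 0.09, adjusted P = 0.0836). Irf1, the factor for many interferon γ targets, went the other way. It was at 197, 177 and 203 against 226, 210 and 231 CPM in B6 (log2 fold change -0.21 ± 0.07, adjusted P = 0.0467) and at 199, 214 and 216 against 269, 267 and 284 CPM in CD8Dual mice (-0.38 ± 0.07, adjusted P = 0.000964). The B6 call of Irf1 was lost under 11 of 20 alternatives. Irf7, which amplifies type I interferon, was not called between lineages, with log2 fold changes of -0.32 ± 0.16 and -0.05 ± 0.16. Isg15 (-0.08 ± 0.21 and -0.36 ± 0.22) and Usp18, which removes ISG15 from proteins and dampens the type I receptor (-0.03 ± 0.11 and -0.27 ± 0.11), were not called either. Of the RNA sensors Ifih1, Ddx58, Dhx58 and Zbp1, only Ddx58 was called, lower in CD8.1 than CD8.2 T cells at 97.2 to 110 against 118 to 127 CPM (log2 fold change -0.24 ± 0.08, adjusted P = 0.0392). That call was lost under 6 of 19 alternatives.

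Of the further interferon-induced genes, Ifi27 and Trim30a were lower in the helper lineage of both strains. Ifi27, a mitochondrial protein, was at 76.5 to 89.5 against 108 to 116 CPM in B6 (adjusted P = 0.0178) and 55.8 to 82.1 against 89.3 to 99.3 CPM in CD8Dual mice (adjusted P = 0.005). Trim30a was at 110 to 127 against 140 to 175 CPM (adjusted P = 0.0079) and 105 to 127 against 144 to 152 CPM (adjusted P = 0.0201). Ifi35, Xaf1 and Rtp4 were called in neither strain.

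Further lineage calls rested on single libraries. In B6, Dtx3l was lost without CD4+ replicate 2 or CD8+ replicate 3, and Ifi27 without CD4+ replicate 1 or 2 or CD8+ replicate 2 or 3. The calls of Ifi203, Irf1 and Irf9 were each lost without any of at least 6 libraries, CD4+ replicate 2 and CD8+ replicate 1 among them. In CD8Dual mice, Slfn1 was lost without CD8.1 replicate 2 or CD8.2 replicate 2 or 3, Parp9 without CD8.1 replicate 1 or CD8.2 replicate 2 or 3, and Parp14 without CD8.1 replicate 2. Trim30a was lost without CD8.1 replicate 3 or CD8.2 replicate 2, Irgm1 without CD8.1 replicate 3 or any CD8.2 library, Ddx58 without CD8.1 replicate 1 or 3 or any CD8.2 library, and Ifi203 without CD8.2 replicate 1.

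Ifi44 was the one gene of the 45 whose lineage change differed between the strains. It was low, at 2.46, 2.59 and 3.66 CPM in B6 CD4+ and 0.328, 0.691 and 0.914 CPM in B6 CD8+ T cells. In CD8Dual mice it was at 3.10, 2.26 and 2.14 CPM in CD8.1 T cells and 1.75, 1.83 and 2.13 CPM in CD8.2 T cells. B6 CD8+ libraries were below all others, with 8, 19 and 19 counts. The helper lineage was 4.53-fold higher in B6 (adjusted P = 0.000101), while the log2 fold change in CD8Dual mice was 0.38 ± 0.29 (adjusted P = 0.344). The interaction was -1.80 ± 0.43 (adjusted P = 0.0453), and 0 of 45 genes had a positive one that passed (2 at an unadjusted P under 0.05, and 1 by DESeq2). Over all tested genes, 1.58% had a positive and 0.29% a negative interaction past the threshold. The call of Ifi44 was lost when any 1 library was left out, with 2 exceptions (B6 CD8+ replicate 3 and CD8.1 replicate 1), while its log2 value stayed between -2.10 and -1.49 under the alternatives tried. Without B6 replicate 3 of both lineages it was -1.90 (adjusted P = 0.0616). With the replicate number as a block 4 of the 45 genes passed: Ifi44 (-1.81), Igtp (-0.42), Oas3 (0.62) and Gbp3 (0.62), at adjusted P of 0.034, 0.0497, 0.0138 and 0.0329. Of the interferon-induced genes outside the list, 2 of 53 tested had an interaction, Iigp1 (-1.12 ± 0.20, adjusted P = 0.0064) and Ly6a (-0.69 ± 0.15, adjusted P = 0.02). Iigp1, a GTPase of the same family as Igtp, was at 12.8 ± 0.44 CPM in B6 CD8+ (SD, n = 3), 25.4 ± 7.1 in B6 CD4+, 31.2 ± 1.6 in CD8.1 T cells and 34.2 ± 2.0 in CD8.2 T cells.

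**Figure D4:**
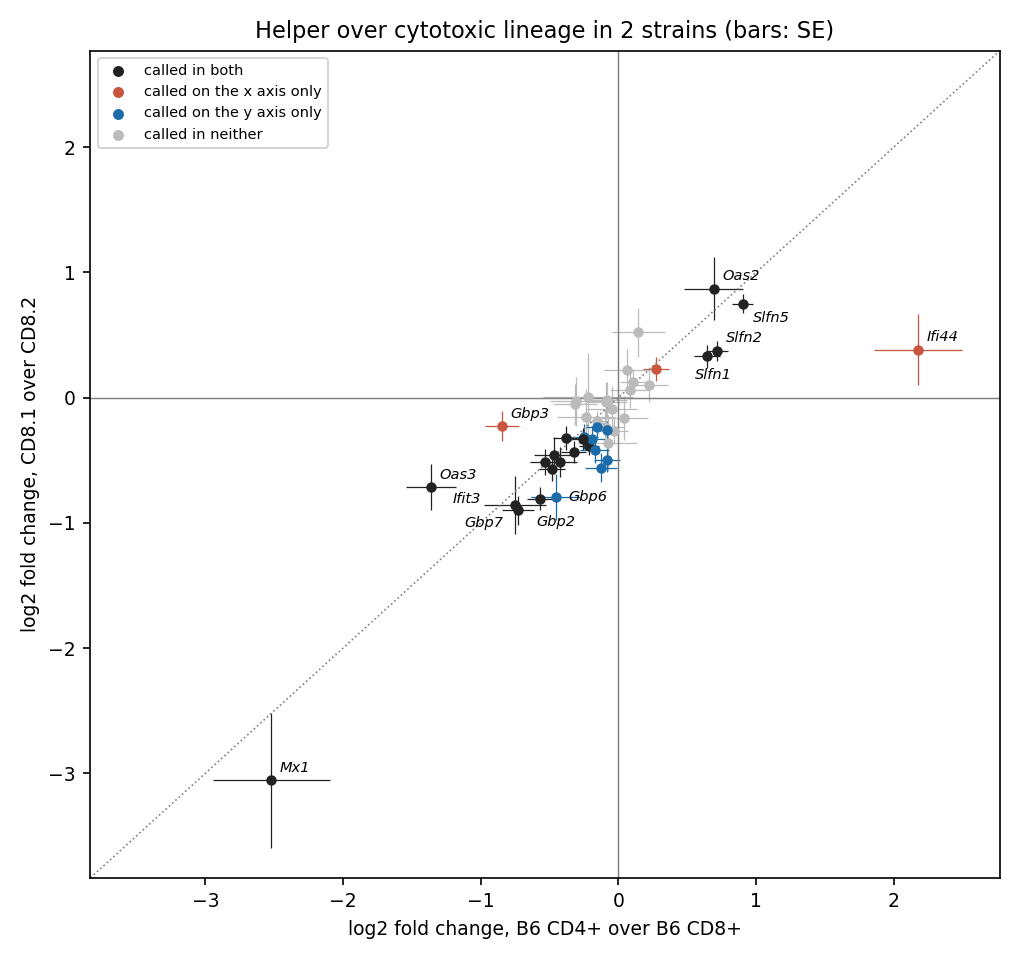
Log2 fold change of helper over cytotoxic lineage in B6 (horizontal axis) and in CD8Dual mice (vertical axis) for the 45 genes, with standard errors as bars and the dotted line marking equal change. Points near the line changed alike in both strains; Ifi44, at 2.18 and 0.38, lies farthest below it.

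The comparisons within a lineage asked how CD8Dual T cells differed from their B6 counterparts. In the helper lineage 1 of 45 genes was higher in CD8.1 than B6 CD4+ T cells and 9 were lower, where 6.94% and 5.82% of all tested genes were called in those directions. The median log2 fold change was -0.25 against 0.0025 over all tested genes, and 40 of the 45 were negative. By the fold over 5 definition 0 of the 45 passed, and 0.61% of all genes did. In the cytotoxic lineage 4 of 45 were higher in CD8.2 than B6 CD8+ T cells and 7 lower, beside 3.29% and 4.66% of all tested genes, with a median of -0.21 against -0.0035 over all tested genes and none past 5-fold (0.579% of all genes). The comparisons of the helper and of the cytotoxic lineage share no samples. Of the 45 genes, 35 had the same sign in both (77.8%, against 63.4% of all tested genes), and 4 were called in both, all in the same direction: Oas2, Slfn5 and Gbp7 lower and Gbp3 higher in CD8Dual mice. These 4 were 40% of the calls in the helper and 36.4% of those in the cytotoxic lineage.

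Oas2 was 2.38-fold lower in CD8.1 than B6 CD4+ (adjusted P = 0.00288) and 2.69-fold lower in CD8.2 than B6 CD8+ T cells (adjusted P = 0.00236), with no overlap at the levels given above. Slfn5 was 1.7-fold (adjusted P = 1.81e-05) and 1.53-fold lower (adjusted P = 0.000236), so that its level in CD8.1 T cells, 97.0 ± 3.55 CPM (SD, n = 3), was near that of B6 CD8+ T cells, 88.3 ± 1.55 CPM. Gbp7 was 1.58-fold (adjusted P = 0.00309) and 1.4-fold lower (adjusted P = 0.0181). Gbp3 was 2.02-fold (adjusted P = 0.000134) and 1.32-fold higher (adjusted P = 0.0493), the latter call being lost under 10 of 20 alternatives. Gbp2, which lies in the same region, gave log2 fold changes of -0.00 ± 0.09 and 0.24 ± 0.09 and was not called. Gbp7, Gbp3 and Gbp2 lie in this order on chromosome 3, at 142530342 to 142550149, 142560026 to 142573209 and 142620602 to 142638008.

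**Figure D5:**
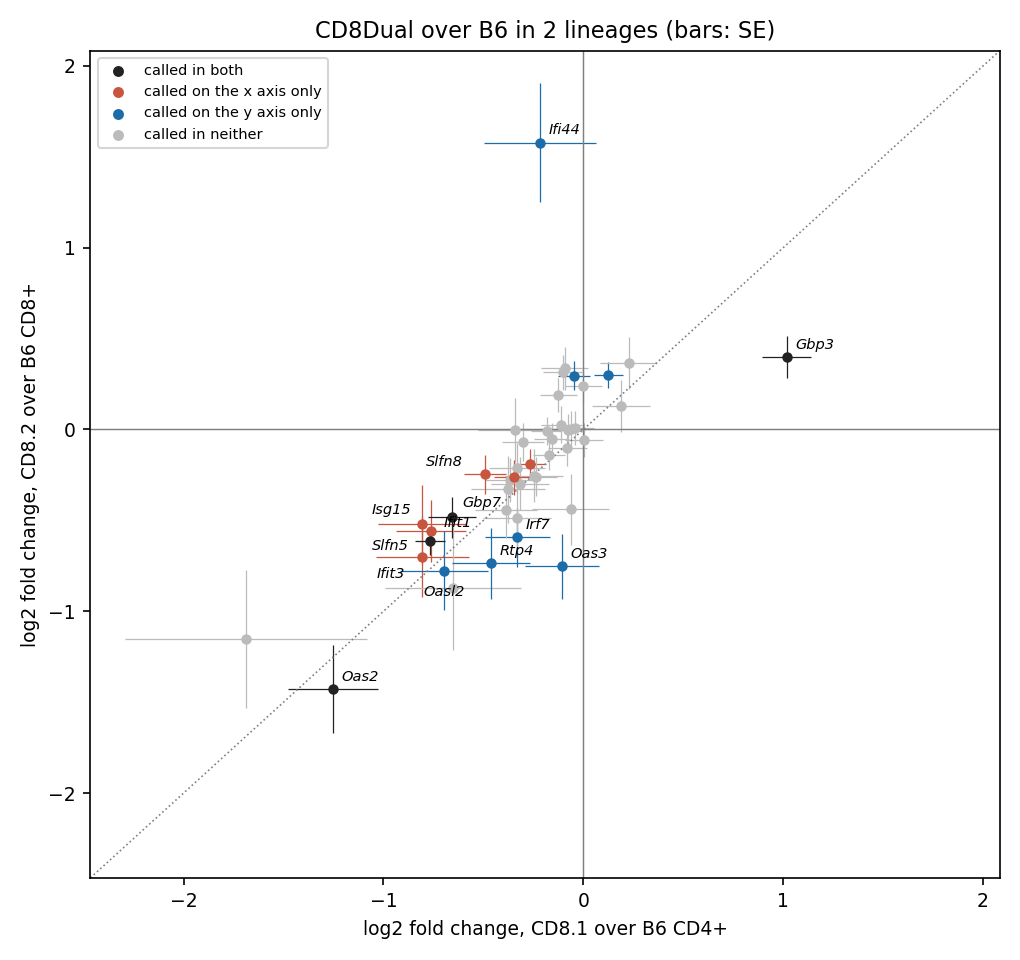
Log2 fold change of CD8.1 over B6 CD4+ T cells (horizontal axis) and of CD8.2 over B6 CD8+ T cells (vertical axis) for the 45 genes, with standard errors as bars. Oas2, Slfn5 and Gbp7 lie in the lower left and Gbp3 in the upper right; Ifi44, at -0.22 and 1.58, stands apart at the top.

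Several genes of the type I response were lower in CD8.1 than B6 CD4+ T cells. Ifit1, at 32.1, 35.8 and 24.4 against 49.3, 44.6 and 62.9 CPM, was 1.7-fold lower (adjusted P = 0.0113), and Ifit3 was 1.75-fold lower (adjusted P = 0.0339). Isg15, the ubiquitin-like modifier, was at 26.3, 28.3 and 17.5 against 30.2, 37.8 and 58.2 CPM (1.75-fold lower, adjusted P = 0.027). Slfn8 (log2 fold change -0.49 ± 0.11, adjusted P = 0.00843), Ifi213 (-0.35 ± 0.10, adjusted P = 0.0315) and Ddx58 (-0.27 ± 0.08, adjusted P = 0.0421) were lower as well. With B6 replicate 3 of both lineages removed, 11 genes were called, 2 higher and 9 lower, and 8 of the 10 calls were kept. Irgm2 was added as higher (log2 fold change 0.37, edgeR adjusted P = 0.0344). Oasl2 (-0.47, adjusted P = 0.0449) and Parp14 (-0.26, adjusted P = 0.0356) were added as lower. Isg15 (log2 fold change -0.52, adjusted P = 0.0745) and Ifi213 (-0.31, adjusted P = 0.0508) were lost, and Ifit1 stayed lower (log2 fold change -0.63, adjusted P = 0.0199). Leaving out CD8.1 replicate 3, the lowest library, left 6 calls and lost Ifit3, Isg15, Ifi213 and Ddx58. Ifit3 was also lost without B6 CD4+ replicate 2 or 3, Isg15 without replicate 3, Ifi213 without replicate 1 or 3, and Ddx58 without replicate 1 or 2 or without CD8.2 replicate 2 or 3.

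In the cytotoxic lineage the genes called lower were, beside Oas2, Slfn5 and Gbp7, the 2-5A synthetase Oas3 (1.68-fold, adjusted P = 0.0182), the related Oasl2 (1.71-fold, adjusted P = 0.0403), Rtp4 (1.67-fold, adjusted P = 0.0316) and Irf7 (1.51-fold, adjusted P = 0.0366). Irf7 was at 47.9, 52.2 and 44.5 CPM in CD8.2 against 62.9, 67.0 and 88.2 CPM in B6 CD8+ T cells. Rtp4 was at 43.8, 46.5 and 40.9 against 63.3, 63.7 and 91.5 CPM, and Oasl2 at 12.6, 13.6 and 12.1 against 15.7, 19.7 and 30.2 CPM. In each the groups did not overlap, and B6 replicate 3 was the highest. Without B6 CD8+ replicate 3, 9 genes were called, of which 7 were higher and 2 lower, and 6 of the 11 calls were kept. With replicate 3 of both B6 lineages removed, 11 genes were called, 8 higher and 3 lower, and 7 calls were kept: the lower calls of Irf7, Oasl2, Rtp4 and Gbp7 were lost, at adjusted P of 0.0601, 0.0505, 0.068 and 0.0591. The calls added were all of GTPases higher in CD8.2 T cells: Ifi47, Igtp, Irgm2 and Gbp2 (log2 fold changes 0.45, 0.38, 0.52 and 0.31). In the fit of all 12 libraries, 6 of the 8 interferon-inducible GTPases were positive here (median 0.28), with 1 called higher and 1 lower. Higher in CD8.2 T cells were Ifi44 (2.99-fold, adjusted P = 0.00876), Gbp3, Irf1 (log2 fold change 0.30 ± 0.07, adjusted P = 0.0203) and Slfn2 (0.30 ± 0.08, adjusted P = 0.0356). The calls of Irf1 and Slfn2 were lost without B6 CD8+ replicate 1 or 2 or any CD8.2 library, those of Irf7 and Oasl2 without B6 CD8+ replicate 2 or 3 or any CD8.2 library, and that of Rtp4 without B6 CD8+ replicate 3 or any CD8.2 library. Gbp7 was lost without B6 CD8+ replicate 3 or CD8.2 replicate 2 or 3, Oas3 without B6 CD8+ replicate 3 or CD8.2 replicate 1 or 3, and Gbp3 without any of 8 libraries. A fit of these 2 groups alone called 27 of the 45 genes, 8 higher and 19 lower, against 11 in the fit of all 12 libraries.

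Genes upstream in the pathway and other interferon-induced genes came from lists of the same pathway. Of 24 receptor and signalling genes in the table, 23 were tested. Between the lineages 5 were higher and 5 lower in B6 CD4+ T cells, and 6 and 6 in CD8.1 T cells. That is 21.7% in each direction in B6 and 26.1% in CD8Dual mice, where 11.4% and 11.7% and then 14.9% and 13.8% of all tested genes were called higher and lower. The chains of the interferon γ receptor went opposite ways: Ifngr1, the binding chain, was at 95.3 ± 1.5 CPM (SD, n = 3) in B6 CD4+ and 194 ± 5.0 in B6 CD8+ T cells, and at 130 ± 11 in CD8.1 T cells and 228 ± 13 in CD8.2 T cells. Ifngr2, the signalling chain, was at 45.2 ± 3.4 against 23.4 ± 2.0 and at 48.5 ± 5.6 against 26.6 ± 1.1 CPM. The log2 fold changes were -1.03 ± 0.07 and -0.80 ± 0.07 for Ifngr1 and 0.94 ± 0.10 and 0.87 ± 0.10 for Ifngr2. The type I receptor chain Ifnar2 was lower in the helper lineage of both strains (-0.52 ± 0.08 and -0.26 ± 0.08), and Ifnar1 was called in no lineage comparison. Irf5 (1.71 ± 0.23 and 1.73 ± 0.21) and Irf4 (1.66 ± 0.17 and 1.05 ± 0.16) were higher in the helper lineage of both strains. Between strains, 5 of the 23 were higher and 0 lower in CD8.1 than B6 CD4+ T cells, and 2 higher and 0 lower in CD8.2 than B6 CD8+ T cells, Irf5 among both. The shares of all tested genes called higher and lower were 6.94% and 5.82% in the former and 3.29% and 4.66% in the latter comparison. The 2 higher in CD8.2 T cells were Irf5 and Irf4. At an unadjusted P under 0.05, 4 and 3 of the 23 were lower in these comparisons.

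Of 61 other interferon-induced genes in the table, 53 were tested. In B6, 7 were higher and 16 lower in CD4+ T cells, and in CD8Dual mice 8 were higher and 21 lower in CD8.1 T cells, with medians of -0.17 and -0.25. The genes called higher were 13.2% and 15.1% of the 53, near the 11.4% and 14.9% of all tested genes, and those called lower were 30.2% and 39.6%, against 11.7% and 13.8%. Trim30c, of the same family as Trim30a, was at 8.06 ± 0.94 CPM (SD, n = 3) in B6 CD8+ and 7.50 ± 0.26 in CD8.2 T cells against at most 0.216 in B6 CD4+ and 0.430 in CD8.1 T cells, with log2 fold changes of -5.74 and -4.73, though related Trim30 genes share sequence. Epsti1 was at 85.3 ± 6.1 against 411 ± 48 CPM in B6 and 98.3 ± 11 against 432 ± 17 CPM in CD8Dual mice (log2 fold changes -2.27 and -2.14). Ly6a, which encodes the surface protein Sca-1, was higher in the helper lineage, at 252 ± 4.9 against 56.8 ± 8.6 and 145 ± 17 against 52.9 ± 2.4 CPM. Between strains, 1 was higher and 13 lower in CD8.1 than B6 CD4+ T cells, and 3 higher and 10 lower in CD8.2 than B6 CD8+ T cells. These were 1.89% and 24.5% of the 53 in the helper lineage, against 6.94% and 5.82% of all tested genes, and 5.66% and 18.9% in the cytotoxic lineage, against 3.29% and 4.66%. Eif2ak2, the RNA-activated kinase PKR, was lower in CD8Dual mice in both lineages, at 10.0 ± 0.44 against 19.1 ± 0.15 CPM and 16.1 ± 2.0 against 30.8 ± 4.8 CPM (log2 fold change -0.93 in each). Nlrc5, the activator of MHC class I genes, gave log2 fold changes of -0.55 and -0.49, and Slfn9 gave -0.81 and -0.90.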

How the data were processed

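RNA was prepared by the authors from sorted lymph node T cells, libraries were made with a low-input kit and read as pairs of 125 bases, and reads were aligned to mm10 with STAR and counted per gene with RSEM; the submitters' processing notes name STAR, RSEM, limma and mm10 without versions. The strand setting and the gene annotation are not given in the sources used here. The deposited values were raw read counts per gene, whole numbers in 1 table of 49585 genes with 1 column per sample; all 12 columns were matched to samples by name and grouped by the sample labels. Replicates of a group differed by more than counting noise, so none was merged.

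Counts were analysed with edgeR 4.0.16 in R 4.3.3 (TMM, filterByExpr over the 4 groups, quasi-likelihood F test with 1 coefficient per group and all 12 samples), and P values were adjusted by Benjamini-Hochberg over the 13118 genes tested, with calls at adjusted P under 0.05. Standard errors are the log2 fold change divided by the square root of F. CPM used TMM-scaled totals, and log2 CPM a prior count of 2. Fold changes are the first group over the second, and the interaction is the lineage change in CD8Dual minus that in B6. The script was tested on simulated data: of 200 genes changed 2-fold, 78% were recovered between the B6 lineages, with 8 unchanged genes called among 12878. The common biological coefficient of variation was 11.25%. A count of 3, the upper limit that a count of 0 allows, equals 0.0875 to 0.167 CPM in these libraries, and intervals cover counting error only.

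Replicate numbers came from the labels. Deviations from the group means correlated over tested genes between same-numbered B6 CD4+ and CD8+ samples at 0.126, 0.138 and 0.257, all over 0.1, so the numbers were taken to pair these; for CD8.1 and CD8.2 they were -0.00388, 0.0905 and 0.119, and across strains they were negative, so those were not. The members and lists were chosen with earlier results of these data known. Values are given for members called in any of 5 comparisons (at most 12 each, by absolute log2 fold change), for Stat2, Irf9, Irf7, Isg15, Usp18 and Slfn2, for the members with the largest and smallest count, and for at most 10 called pathway genes per comparison, with a few others named beside them as comparisons. Some values beyond these rules (ranges of further called members, Iigp1, Slfn3, Slfn9 and Ifnar1) were added after they were seen. Coordinates and exonic lengths are from GENCODE M21 (GRCm38), where 39 members matched by exact versioned identifier and 6 by identifier without version. Alternatives were DESeq2 1.42.0 and limma-voom 3.58.1, other size factors and filters, call rules, the replicate block, and each sample left out; removing B6 replicate 3 of both lineages was added after the data were seen.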

Additional observations from a re-analysis of the deposited data

Results flagged for a closer look

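One result was picked out because a test of the difference between the strains passed: the lineage change of Ifi44 in CD8Dual minus that in B6 was -1.80 on the log2 scale (adjusted P = 0.0453, edgeR). Ifi44 was higher in all 3 B6 CD4+ than in all 3 B6 CD8+ libraries by 2.18 and in all 3 CD8.1 than in all 3 CD8.2 libraries by 0.38. Its counts were between 8 and 86 per library. The call was lost under 11 of 19 alternatives, most of which left out a library. No formal outlier test was made within groups, since each had 3 samples.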

How the results depend on the processing

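Of 67 calls of single members in the 5 comparisons, 37 kept sign and call under every alternative that was called at adjusted P under 0.05. The call rules that ask for a fold were left out of this tally. None of the 1314 alternative values reversed a call, and 152 of these values missed the threshold. The counts of members called moved by over 1.5 times as follows; no cause was tested. A fold over 5 with unadjusted P left 1 (B6 lineages), 1 (CD8.1 vs CD8.2), 0 (CD8.1 vs B6 CD4+), 0 (CD8.2 vs B6 CD8+) and 0 (interaction), by construction. A fold over 1.5 left 10, 8 and 7 in the B6, CD8Dual and CD8.2 vs B6 CD8+ comparisons. No count filter gave 20 (CD8.1 vs B6 CD4+), 23 (CD8.2 vs B6 CD8+) and 5 (interaction); only the groups compared gave 6 and 27 in the comparisons of strains; DESeq2 gave 2 interactions. Leaving out 1 library gave 12 to 22, 19 to 27, 6 to 13, 3 to 16 and 0 to 2 calls in the same order, the 3 without CD8.2 replicate 3, the 6 without CD8.1 replicate 3; removing B6 replicate 3 of both lineages gave 0 interactions.

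The replicate block, whose numbers were taken to pair only the B6 samples, gave 22, 28, 9, 9 and 4 calls. Among uncalled factors, values changed sign around 0: with B6 replicate 3 of both lineages removed, Irf9 was at 0.01 (0.0070) in CD8.1 vs B6 CD4+ and the interaction of Stat2 at -0.10 (-0.099). With 1 library left out, the ranges were -0.38 to 0.10 for Isg15 and -0.12 to 0.027 for Usp18 between the B6 lineages, -0.24 to 0.039 for Irf7 between CD8.1 and CD8.2, -0.14 to 0.011 and -0.042 to 0.059 for Irf9 in the helper and cytotoxic comparisons of strains, and -0.47 to 0.0077, -0.14 to 0.011 and -0.049 to 0.092 for the interactions of Isg15, Irf9 and Stat2. The mean over members in place of the median moved the level of CD8.2 replicates 1 and 3 to -0.0094 and -0.054; a prior count of 0.5 moved no library's level by over 1 SD of its group. Low counts of Mx1, Ifi44 and Oas2 limit their folds.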
